A study of Mus musculus with 2 samples.

Results

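Serine-threonine protein phosphatase genes were examined in a chromatin immunoprecipitation experiment on promoter arrays (ChIP-chip) for the transcription factor CREM in adult mouse testis. The genes were chosen by name, as those whose symbol on the arrays starts with Ppp and a number or is Ppm1 and a letter. This gave 64 of 17850 gene names and 1974 of 474380 probes, with 29 genes and 797 probes on array 1 and 35 genes and 1177 probes on array 2. Of the 64 symbols, 62 are current in RefSeq, Ppp2r4 is now Ptpa, and Ppp4r1l was not matched.

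Germ cells of adult male C57BL/6 mice were fixed with formaldehyde and sonicated. The labels give 5 testes as the source, without saying from how many animals. Chromatin precipitated with an antibody against CREM (sc-440, Santa Cruz) was labelled with Cy5, and chromatin precipitated with goat IgG, the negative control, was labelled with Cy3. Both precipitates were put together on 2 arrays with different probes, each hybridised 1 time, without a repeat or a dye swap. Antibody and dye therefore cannot be told apart, no test across samples was possible, and no p-value is given. Precipitated DNA carries no marker of cell type, so the labelled cells could not be checked in these data.

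Most reversible phosphorylation of serine and threonine is undone by a small number of catalytic subunits that gain their specificity from many partner proteins. PP1 works with targeting subunits and inhibitors, PP2A with a scaffold and exchangeable B subunits, calcineurin (PP3) with calmodulin and a calcium-binding subunit, and the metal-dependent PPM enzymes mostly alone. In mouse testis a splice form of the PP1 catalytic subunit encoded by Ppp1cc is needed for sperm formation, and a testis form of calcineurin, encoded by Ppp3cc and Ppp3r2, is needed for normal sperm motility. CREM is a cAMP-responsive factor of haploid germ cells that recognises the cAMP response element TGACGTCA or its core TGACG, read as CGTCA on the other strand.

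Every value is log2 of the CREM signal over the IgG signal at a probe, centred on the median of the array. A window is the median of 3 neighbouring probes whose starts lie at most 500 bp apart, and each gene is described by its highest and its lowest window. A window at 1 or more, a 2-fold excess of CREM over IgG, is called on the CREM side. A window at -1 or less, a 2-fold excess of IgG over CREM, is called on the IgG side and is measured the same way. The IgG side is not a like background for the CREM side. Of all used probes with at least 60% G and C, 54.0% read -1 or less and 0.41% read 1 or more. Probe positions are those of mouse build mm9, probe values within a window are given in genome order, and distances to transcription starts were found by matching whole probe sequences to RefSeq promoters of GRCm38.p6. No mm9 annotation was used, so exons and introns are not stated.

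The probes of the 2 highest windows are shown first, because they carry the strongest CREM-side signal among the phosphatase genes. Capitals mark CG dinucleotides, and letters are those of the array's probes, with mm9 positions. The first 3 probes lie before the start of Ppp2ca, which encodes the main catalytic subunit of PP2A, and the next 3 lie before the start of Ppp1r11, which encodes the PP1 inhibitor known as inhibitor-3.
Ppp2ca, chr11:51910834-51910893, 1.51: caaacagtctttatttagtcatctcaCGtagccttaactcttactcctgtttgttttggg
Ppp2ca, chr11:51910948-51911001, 3.05: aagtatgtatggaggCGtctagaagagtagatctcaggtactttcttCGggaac
Ppp2ca, chr11:51911062-51911110, 2.63: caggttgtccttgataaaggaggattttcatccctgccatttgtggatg
Ppp1r11, chr17:37088867-37088925, 2.64: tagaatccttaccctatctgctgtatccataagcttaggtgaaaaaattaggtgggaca
Ppp1r11, chr17:37089155-37089214, 2.52: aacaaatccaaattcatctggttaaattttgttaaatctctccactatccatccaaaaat
Ppp1r11, chr17:37089288-37089347, 2.61: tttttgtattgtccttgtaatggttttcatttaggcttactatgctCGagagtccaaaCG

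Probes on the IgG side were chosen by another rule. Shown are the 8 probes of phosphatase genes that lay wholly before a single mapped start, within 500 bp of it, and read -1.5 or less. Capitals again mark CG dinucleotides.
Ppm1g, chr5:31523014-31523058, -3.00: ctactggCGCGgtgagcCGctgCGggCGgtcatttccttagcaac
Ppp1r12a, chr10:107598906-107598950, -2.27: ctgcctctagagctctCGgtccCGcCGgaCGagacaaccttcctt
Ppm1e, chr11:87172632-87172676, -2.18: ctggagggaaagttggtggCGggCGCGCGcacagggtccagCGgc
Ppm1a, chr12:73862110-73862154, -1.90: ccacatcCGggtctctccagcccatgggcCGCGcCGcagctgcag
Ppm1m, chr9:106101470-106101514, -1.89: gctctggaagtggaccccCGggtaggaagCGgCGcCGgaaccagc
Ppm1a, chr12:73862005-73862049, -1.79: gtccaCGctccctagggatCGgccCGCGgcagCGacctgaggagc
Ppp1r7, chr1:95239809-95239853, -1.57: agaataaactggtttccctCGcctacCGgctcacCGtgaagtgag
Ppp1cb, chr5:32761219-32761263, -1.54: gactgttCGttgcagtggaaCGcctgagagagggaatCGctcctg

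The 6 CREM-side probes hold 5 CG dinucleotides in all, 0 to 2 each, and are 28.3 to 44.9% G and C. The 8 IgG-side probes hold 33, 3 to 5 each, and are 53.3 to 73.3% G and C. These sets were chosen by different rules, so base composition, position and ratio differ together here. Median G and C content over all genes with a matched start was 51.1% within 200 bp of it. From 2000 to 1000 bp before it the median was 38.6%. The part of base composition in the values was not tested beyond the setting that removes the trend along G and C content.

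A window on the CREM side was called at 39 of the 64 phosphatase genes (60.9%), against 34.4% of all 17342 genes with a window. By array the counts were 16 of 29 against 33.3% on array 1, and 23 of 35 against 35.5% on array 2. The median highest window was 1.09 over the phosphatase genes and 0.77 over all genes. On the IgG side, 30 of the 64 genes (46.9%) had a call, against 33.6% of all genes, and the median lowest window was -0.97 and -0.76. Calls on both sides occurred at 21 of the 64 phosphatase genes, against 2085 (12%) of all 17342 genes. Neither call was found at 16 of the 64, against 7625 of all 17342 genes.

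The share past the threshold was higher than over all genes in both directions, and the number of windows stands beside this. Phosphatase genes had a median of 22.5 windows per gene, against 19 over all genes, and a gene with more windows has more chances of an extreme one. The middle of their own range, 16.75 to 30 windows, held 33 phosphatase genes. Of these, 22 (66.7%) had a CREM-side call and 12 (36.4%) an IgG-side call, against 38.5% and 38.2% of all genes with as many windows. The part of window number in the counts was not tested. Counted by window, 154 of 1536 windows of phosphatase genes (10.0%) read 1 or more and 90 (5.86%) read -1 or less, against 5.99% and 4.56% of all windows.

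**Figure D1:**
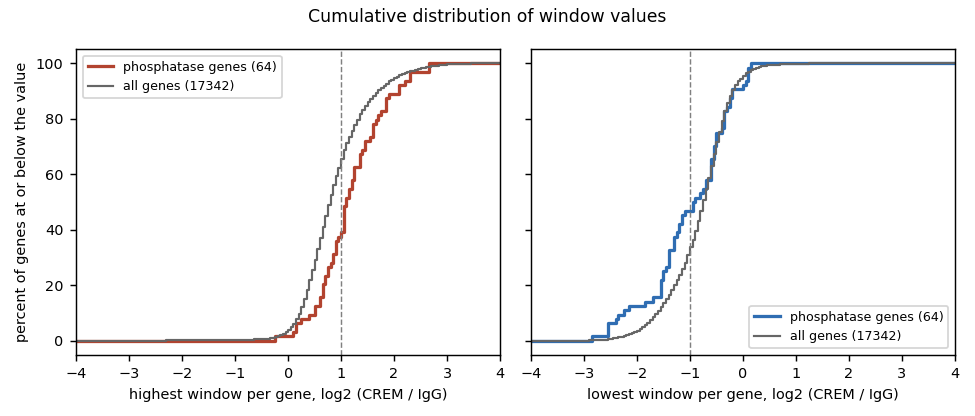
Cumulative percent of genes (vertical axis) whose highest window (left) or lowest window (right) lies at or below a log2 CREM over IgG ratio (horizontal axis), for the 64 phosphatase genes (coloured) and all 17342 genes (grey), with the thresholds of 1 and -1 dashed. The coloured curve of highest windows lies to the right of the grey one around the threshold, and that of lowest windows lies to the left of it below -1.

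The IgG channel was often dim. CREM was well above background at all 3 probes of each gene's highest window, while IgG was not at 1 or more probes in 27 of the 39 called windows (69.2%). Over all genes this was so in 4271 of 5970 called windows (71.5%), close to the share among phosphatase genes. In such windows a fold is given as a lower bound, against the lowest signal that was well above background. The bound holds for the scanner's processed signals only. With normexp, another background correction, some highest windows lay below their bound, as at Ppp2r5a, and others above it, as at Ppp1r10. The called window itself had all 3 probes clear in both channels at 12 of the 64 phosphatase genes on the CREM side. Over all 17342 genes this was so at 1698 (9.79%). On the IgG side it was so at 29 of the 64, and at 4781 (27.6%) of all genes. Windows were also built only from probes clear in both channels. Then 24 phosphatase genes (37.5%) had a CREM-side call, against 20.8% of all genes, and 30 (46.9%) an IgG-side call, against 28.6%. Windows at 2 or more were found at 7 of the 64 phosphatase genes, against 5.37% of all genes. Windows at -2 or less were found at 8 of the 64, against 3.66%. The only repeated spots were control probes, 3 on array 1 and 5 on array 2 with at least 12 spots each, whose ratios had a median SD of 0.14 and 0.10 and a largest SD of 0.27 and 0.48. This spread covers spots within 1 hybridisation only.

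**Figure D2:**
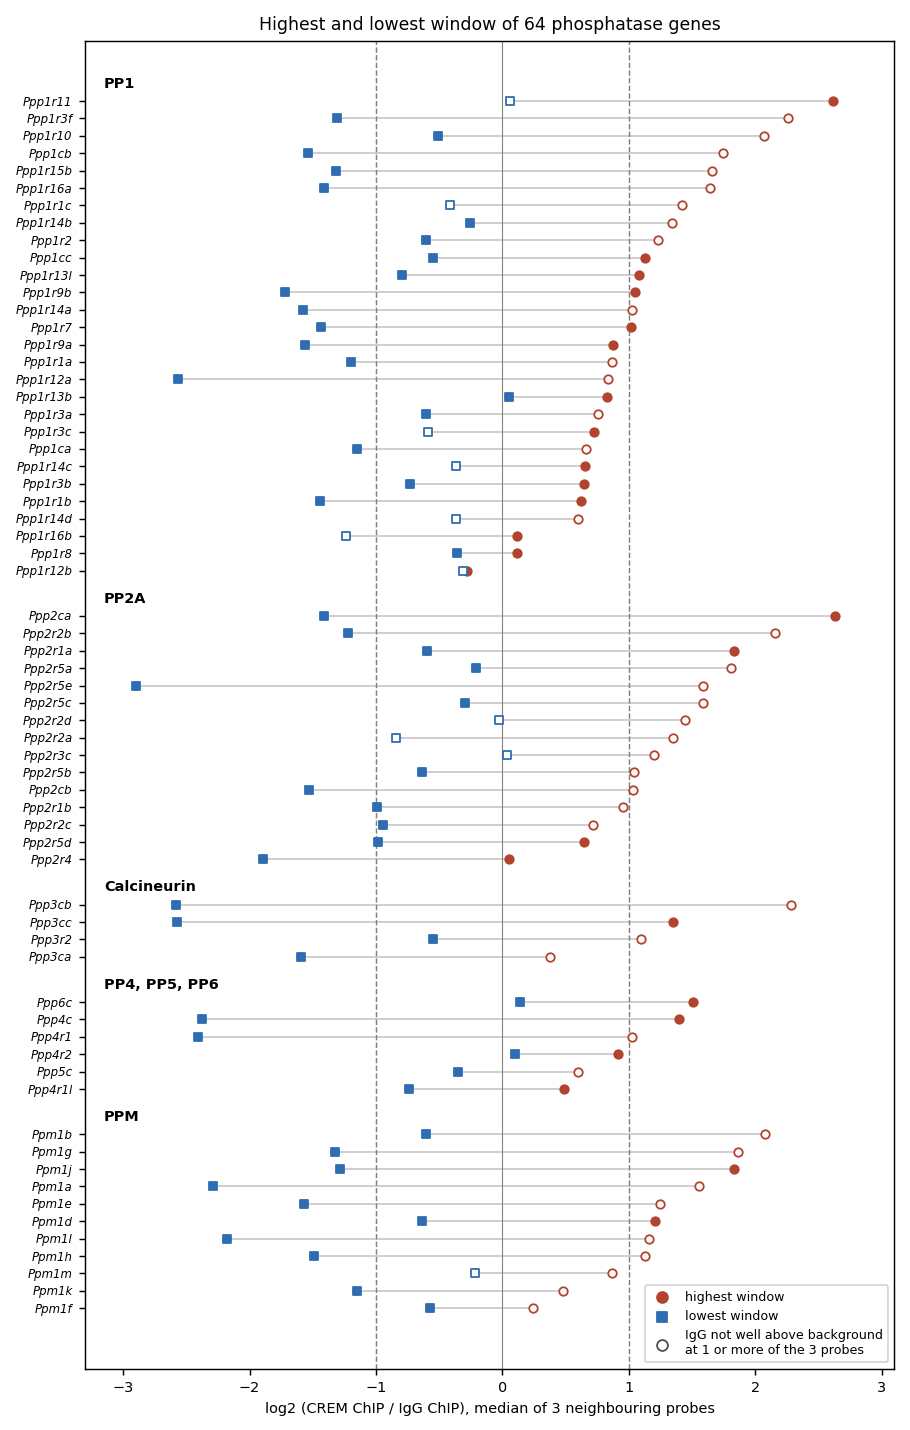
Highest window (red circles) and lowest window (blue squares) of each of the 64 phosphatase genes, as log2 of CREM over IgG on the horizontal axis, grouped by enzyme family and ordered by the highest window. Open marks show windows in which IgG was not well above background at 1 or more of the 3 probes, and dashed lines mark 1 and -1. Ppp2ca at 2.63 and Ppp1r11 at 2.61 lead, both with filled marks.

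Catalytic subunits are described first. Of 22 catalytic genes, 16 had a CREM-side call and 15 an IgG-side call, 12 of them on both. Of 42 genes for regulatory proteins, 23 had a CREM-side call and 15 an IgG-side call. Over all genes the shares were 34.4% on the CREM side, 33.6% on the IgG side and 12% on both, so the IgG-side share of the regulatory genes (35.7%) was near that over all genes. The counts by role that follow are to be read against the same shares, and most roles hold few genes. Among the PP1 catalytic genes, Ppp1cb had the highest window, at 1.74, and the 3 probes of chr5:32761942-32762320 read -1.19, 1.74 and 2.23. IgG was clear at 1 of them, so CREM exceeded IgG there at least 2.24-fold. With both channels clear the highest window of Ppp1cb was 0.85, which ends the call. The window at 1.74 lay about 818 bp after the start. The lowest window of the gene, at -1.54 with all probes clear, was centred just before the start and crossed it.

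Ppp1cc, the PP1 catalytic gene with the testis-enriched splice form, had its highest window at 1.13, near the threshold, on chr5:122607355-122607742. The probes read 0.22, 1.13 and 1.13, all clear in both channels, about 722 bp before the start. With windows of 5 probes the highest window of Ppp1cc was 0.38, which ends its call. A single probe about 17 bp before the start of Ppp1cc read -1.5, and the next probes, about 484 and 799 bp after it, read 0.71 and 0.45. Ppp1ca, the third PP1 catalytic gene, was not called, with a highest window of 0.66 from probes at 0.09, 0.66 and 2.12. Its lowest window was -1.15.

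Ppp2ca had the highest window of all 64 genes. The probes of chr11:51910834-51911110 read 1.51, 3.05 and 2.63, all clear in both channels, a 6.17-fold excess of CREM at the median probe. The window lay about 1352 bp before the start and belonged to a stretch of 2313 bp in called windows. Across it the signal stayed high up to about 314 bp before the start of Ppp2ca, where a probe read 1.14. At about 204 bp before the start the value was 0.08, and at about 21 and 138 bp after it -1.41 and -1.68. The gene was thus called on both sides of 0, before its start and across it. Ppp2cb, which encodes the other PP2A catalytic subunit, had a highest window of 1.03 (probes -0.07, 1.03 and 1.03) and a lowest of -1.53. With windows of 5 probes its highest window was 0.68, which ends the call.

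Calcineurin genes had a call at 3 of 4 genes on each side. Ppp3cb had a highest window of 2.28 on chr14:21365560-21365996, but its probes read -2.58, 2.28 and 3.85, and IgG was clear only at the first of them. The excess there is at least 2.72-fold, and with dim probes left out the highest window of Ppp3cb was -0.21, so the call rests on probes where IgG was not well above background. The 2 high probes lay about 66 and 173 bp before the start, and the low probe about 214 bp after it.

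Ppp3cc, the testis-enriched catalytic subunit, had probes of 1.25, 1.73 and 1.35 in its highest window (1.35, chr14:70688131-70688519), all clear, a 2.54-fold excess of CREM. Its lowest window, on chr14:70688743-70689264, lay next to it, with probes at -0.33, -2.57 and -2.73. Ppp3r2, the testis form of the regulatory subunit, was just past the threshold at 1.09 (probes 1.36, 0.01 and 1.09, IgG clear at 1). Its highest window was 0.48 with both channels clear, which ends the call. Ppp3ca, the catalytic form known best from brain, was not called, at 0.37, and had a lowest window of -1.59.

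The related catalytic genes of the PP4, PP5 and PP6 enzymes gave 2 calls. Ppp6c had probes of 1.04, 1.91 and 1.51 (window 1.51, chr2:39080832-39081161), all clear, about 876 bp after the start. Ppp4c had probes of 1.40, 1.51 and 0.08 (window 1.40, chr7:133936831-133937651), all clear, about 1188 bp before the nearer of its 2 starts, and a lowest window of -2.37 about 129 bp after a start. With probe starts at most 300 bp apart the highest window of Ppp4c was 0.59, which ends its call. Ppp5c, the enzyme with its own regulatory repeats in the same chain, reached 0.60.

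**Figure D3:**
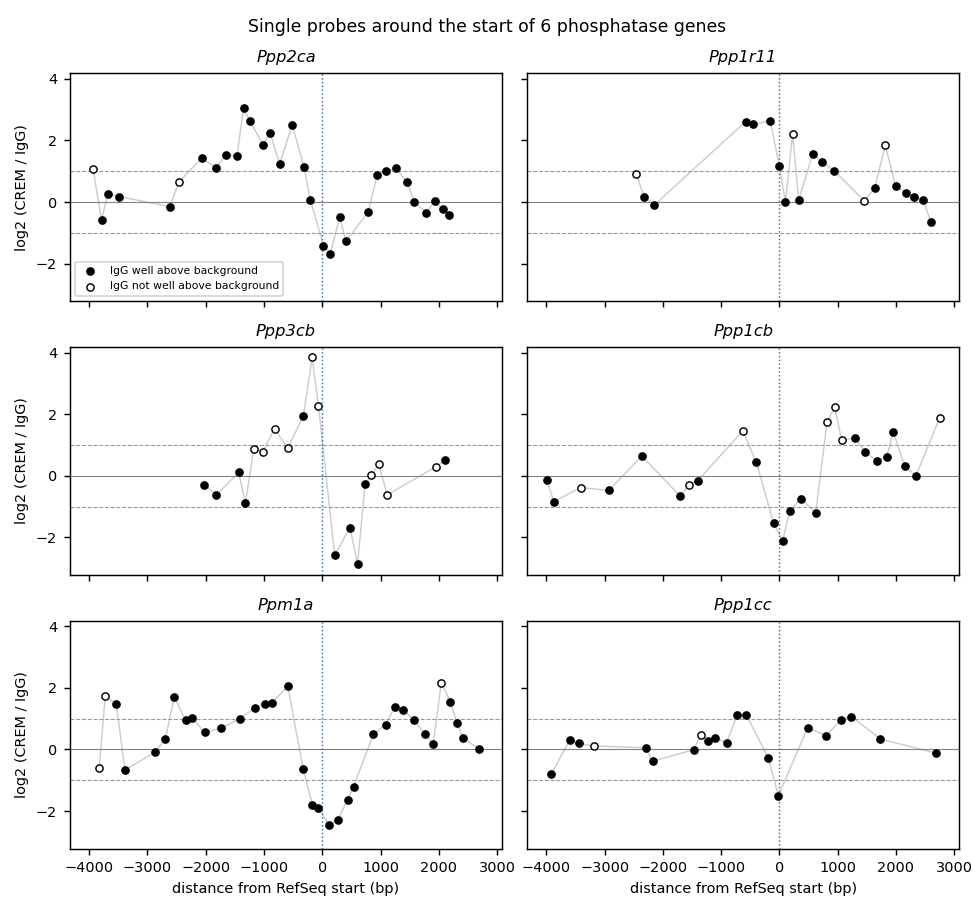
Log2 CREM over IgG ratio of single probes (vertical axis) against distance from the matched RefSeq start in bp (horizontal axis, negative before the start) at Ppp2ca, Ppp1r11, Ppp3cb, Ppp1cb, Ppm1a and Ppp1cc. Filled points have an IgG signal well above background, open points do not. At Ppp2ca, Ppp1cb, Ppm1a and Ppp1cc the probes nearest the start are below -1, with higher values on either side, while at Ppp1r11 the probe nearest the start reads 1.17.

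Of 11 PPM genes, 8 had a CREM-side call and 7 an IgG-side call, 6 of them both. Ppm1b, which acts on stress-activated kinases, had probes of 2.08, 1.39 and 2.99 (window 2.08, chr17:85355155-85355813), with IgG clear at 1 and an excess of at least 2.50-fold. Its called windows joined into a single stretch of 2537 bp, the longest among the phosphatase genes. Ppm1g, a nuclear enzyme tied to splicing, had probes of 0.40, 2.78 and 1.87 (window 1.87, chr5:31521776-31522125), at least 1.32-fold.

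Ppm1j, known from mouse testicular germ cells, had probes of 1.83, 1.47 and 2.02 (window 1.83, chr3:104583374-104583774), all clear in both channels, a 3.56-fold excess. Ppm1a, a regulator of stress kinases and of SMAD signalling, had probes of 0.18, 2.17 and 1.55 (window 1.55, chr12:73864072-73864426). It was called in 5 separate stretches on the CREM side, and in its lowest window, -2.29 about 113 bp after the start, IgG exceeded CREM 4.88-fold.

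The other called PPM genes were Ppm1e at 1.25, Ppm1d, the p53-induced member, at 1.21, Ppm1l at 1.16 and Ppm1h at 1.12. Of these 4, Ppm1d alone had all 3 probes clear, at 0.86, 1.21 and 1.26. With both channels clear the highest windows of Ppm1e, Ppm1l and Ppm1h were 0.75, 0.79 and 0.64, which ends their calls. Ppm1m at 0.87, the mitochondrial Ppm1k at 0.48 and Ppm1f at 0.24 were not called, and Ppm1l had a lowest window of -2.18.

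Inhibitors of PP1 had a CREM-side call at 5 of 9 genes and an IgG-side call at 3 (33.3%, near the 33.6% over all genes). Ppp1r11 stood at 2.61, with 3 clear probes at 2.64, 2.52 and 2.61 on chr17:37088867-37089347, a 6.12-fold excess centred about 446 bp before the start. Its called windows formed a stretch of 1579 bp, and it had no IgG-side window, its lowest being 0.06. Ppp1r1c followed at 1.42, with IgG clear at 0 probes and an excess of at least 1.87-fold. Ppp1r14b was at 1.34, with IgG clear at 2, at least 1.91-fold. Ppp1r2, inhibitor-2, which binds the testis form of PP1 in sperm, had probes of -0.10, 1.64 and 1.23 (window 1.23), with IgG clear at none and an excess of at least 1.05-fold. With both channels clear the highest window of Ppp1r2 was 0.56, which ends the call. Ppp1r14d was lowest of the inhibitors, at 0.60.

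Subunits that carry PP1 to glycogen were called at 1 of 4 genes. Ppp1r3f had probes of -0.94, 3.29 and 2.26 (window 2.26, chrX:7151494-7151924), with IgG clear at 1, at least 3.22-fold. Ppp1r3a, the muscle form, Ppp1r3c and Ppp1r3b lay between 0.65 and 0.75. Subunits tied to the cytoskeleton were called at 2 of 6 genes on the CREM side, Ppp1r16a at 1.64 and Ppp1r9b, spinophilin, at 1.05, and at 5 of 6 on the IgG side. At Ppp1r16a IgG was clear at 1 probe, so the excess is at least 1.05-fold, and the window was 0.60 with both channels clear and 0.43 with 5 probes, which ends the call. Ppp1r12a, the myosin phosphatase targeting subunit, was not called on the CREM side (0.83), and its lowest window was -2.57 from probes at -2.73, 0.09 and -2.57. Ppp1r12b had the lowest value of all highest windows, -0.28, from only 3 windows.

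Among nuclear PP1 partners, Ppp1r10, which directs PP1 to chromatin and RNA polymerase, had probes of 3.70, 2.07 and 0.12 (window 2.07, chr17:36053517-36053875), with IgG clear at 2 and an excess of at least 2.65-fold. Probes named for Ppp1r10 begin near chr17:36053700, so the probe at 3.70, which begins at 36053517, is not named for that gene. The start of Mrps18b, a mitochondrial ribosomal protein gene on the other strand, lies 756 bp from a start of Ppp1r10. Ppp1r7, the ancient PP1 regulator also found with the testis form in sperm, was the last gene inside the threshold at 1.02, from clear probes at 0.89, 2.00 and 1.02. Its start lies 840 bp from that of Pask on the other strand. The probes at 2.00 and 1.02 lay about 36 and 156 bp before the start of Pask, while the window was about 802 bp before that of Ppp1r7. Ppp1r8 was at 0.11. Ppp1r15b, which directs PP1 to a translation initiation factor, was called at 1.66 (at least 2.00-fold in the processed signals). Its highest window was 0.35 with normexp background correction, which ends the call. Of the p53-binding partners, Ppp1r13l was called at 1.08 and Ppp1r13b reached 0.83.

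Regulatory genes of PP2A were called at 9 of 13. Of the scaffold genes, Ppp2r1a had clear probes of 1.83, 2.62 and 0.08 (window 1.83, chr17:21081722-21082175), a 3.55-fold excess about 391 bp before the start. Ppp2r1b was the first gene outside the threshold, at 0.96, from probes at 0.38, 0.96 and 1.49. Of the B family, Ppp2r2b read 2.16 with IgG clear at 0 of 3 probes. Against the lowest clear IgG signal that window read -0.11, so no lower bound is given. Ppp2r2d read 1.44, at least 2.72-fold, and Ppp2r2a 1.35 with IgG clear at 0 probes, at least 1.70-fold. Ppp2r2c, at 0.72, was not called.

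The B' family was called at 4 of 5 genes. Ppp2r5a had probes of 1.81, 1.78 and 2.14 (window 1.81, chr1:193221735-193222098), with IgG clear at 2, at least 3.51-fold in the processed signals. With normexp background correction the highest window of Ppp2r5a was 0.66, which ends the call. Ppp2r5d was lowest at 0.64. Ppp2r5e was called on both sides, with the lowest window of all 64 genes. Its CREM-side window of 1.59 had IgG clear at 1 probe, at least 1.27-fold, and was 0.48 with both channels clear and 0.36 with normexp background correction, which ends that call. The probes of its lowest window, on chr12:76696906-76697303, read -2.90, 0.12 and -2.99, an excess of IgG over CREM of 7.45-fold at the median probe. Ppp2r3c, of the B'' family, was called at 1.20 with IgG clear at 1 probe. That window read -0.62 against the lowest clear IgG signal, while the highest window of the gene was then 1.02. Ppp2r4, which activates PP2A, was at 0.05 with a lowest window of -1.89. The PP4 regulator Ppp4r1 had a lowest window of -2.40, with probes at -2.71, -2.39 and -2.40. Its highest window was 1.02 with IgG clear at 1 probe, and read -0.28 against the lowest clear IgG signal. Ppp4r2, at 0.92, was not called.

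Distances to a start were available for 40 of the 64 genes and 1158 of their probes. Between 1000 and 500 bp before the start, 28.4% of the probes of phosphatase genes read 1 or more, against 17.7% of the probes of all genes with a matched start. The shares were 23.5% and 20.1% from 500 to 200 bp before it, and 15.2% and 9.10% within 200 bp of it. After the start they lay close together, at 10.5% and 11% from 200 to 500 bp, 16.7% and 14.7% from 500 to 1000 bp, and 9.29% and 9.74% from 1000 to 2000 bp. Probes at -1 or less were most frequent within 200 bp, at 38.0% against 26.5%, where the median G and C content was 52.2% and 51.1%. Of 26 called genes with a start, 16 had their highest window within 1000 bp of it and 1 within 200 bp. The lowest window lay within 200 bp at 10 of 16 IgG-side genes. These window counts were not taken over all genes, whose probes at -1 or less were also most frequent within 200 bp.

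**Figure D4:**
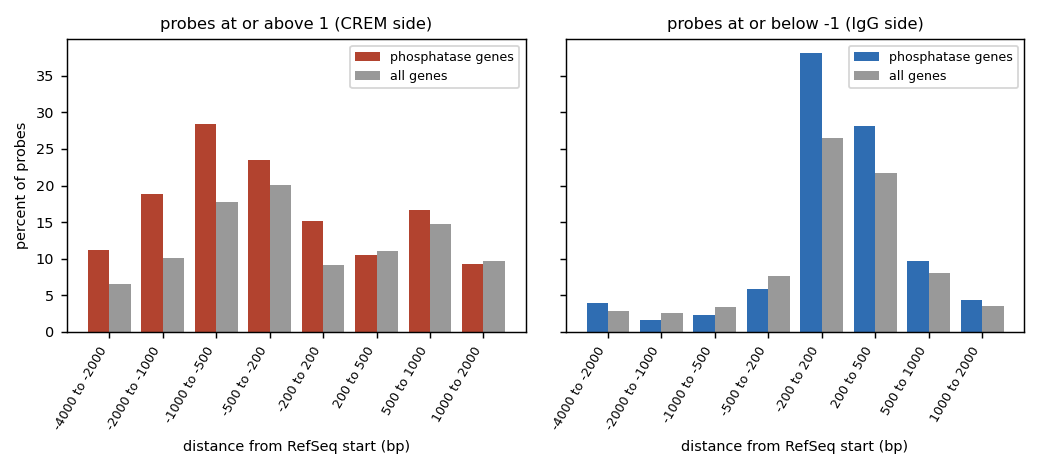
Percent of probes at a log2 ratio of 1 or more (left) and of -1 or less (right) in bins of distance from the RefSeq start in bp, for phosphatase genes (coloured) and all genes with a matched start (grey). CREM-side probes are most frequent from 1000 to 500 bp before the start of phosphatase genes, at 28.4%, and IgG-side probes within 200 bp of it, at 38.0%.

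Probe values also moved with base composition. Of phosphatase probes with at least 60% G and C, 58.5% read -1 or less, against 54.0% of all such probes. Below 40% G and C, 1.34% read -1 or less and 17.9% read 1 or more, against 2.26% and 12.7%. The median ratio of each 2% bin of G and C content was also removed. An IgG-side call was then kept at 12 of the 64 phosphatase genes (18.75%), against 12.6% of all genes. A CREM-side call was then found at 36 (56.25%), against 30.7%.

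The full element TGACGTCA, searched on both strands, was found in 1 of 1920 used probes of phosphatase genes, and in 259 of 454681 used probes of the arrays. The core, which the full element contains, was found in 61 of the 1920 (3.18%), against 2.08% of all used probes. Of these 61 probes 5 read 1 or more (8.20%), against 12.9% of the phosphatase probes without a core. Over all probes the order was the other way, with 11.6% of those with a core and 9.40% of those without one at 1 or more. The probe with the full element, at Ppm1d, and the probes with a core that read 1 or more and lay wholly before a start are shown with the element or core in capitals.
Ppm1d, chr11:85124644-85124688, 0.04: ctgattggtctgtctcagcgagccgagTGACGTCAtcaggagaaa
Ppp1r3f, chrX:7151869-7151924, 2.26: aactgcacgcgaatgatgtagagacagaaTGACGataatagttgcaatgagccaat
Ppm1b, chr17:85357094-85357142, 1.62: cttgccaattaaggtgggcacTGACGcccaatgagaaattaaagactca
Ppp1r9b, chr11:94851630-94851687, 1.05: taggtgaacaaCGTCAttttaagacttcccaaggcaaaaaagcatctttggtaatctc

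The Ppm1d probe lay about 90 bp before the start and read 0.04, close to the array median. The probe of Ppp1r3f is the middle value of its highest window, about 488.5 bp before the start. A match is a description of letters and does not show that a factor binds there.

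RefSeq promoters, from 250 bp before to 50 bp after a start in GRCm38.p6, were available for 49 of the genes, as 61 promoters. The full element was in 5 of them (8.20%), against 1.79% of all 32851 RefSeq promoters, which include genes not on the arrays. The core was in 25 (41.0%), against 20.8%. By gene, the element was in 4 of 49, against 549 of 27025. These shares were not matched for G and C content. The 5 promoters with the element belong to 4 genes. The 150 bases before the start of each gene are shown, with the element in capitals. In these phosphatase promoters CREM's own recognition sequence is written out. For Ppp2r2d the start that lies farther upstream was used, and positions are those of GRCm38.p6.
Ppp2ca, chr11:52098674-52098823, plus strand: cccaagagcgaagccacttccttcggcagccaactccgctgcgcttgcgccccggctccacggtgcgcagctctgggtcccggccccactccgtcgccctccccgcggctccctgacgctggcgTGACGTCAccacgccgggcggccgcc
Ppm1d, chr11:85311104-85311253, plus strand: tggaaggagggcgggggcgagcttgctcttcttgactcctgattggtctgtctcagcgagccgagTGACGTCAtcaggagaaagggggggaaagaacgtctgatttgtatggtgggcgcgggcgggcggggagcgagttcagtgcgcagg
Ppm1a, chr12:72761061-72761210, plus strand: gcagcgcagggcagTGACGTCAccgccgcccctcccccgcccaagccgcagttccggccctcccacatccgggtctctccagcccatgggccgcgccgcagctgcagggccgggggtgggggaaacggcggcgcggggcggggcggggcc
Ppp2r2d, chr7:138846209-138846358, plus strand: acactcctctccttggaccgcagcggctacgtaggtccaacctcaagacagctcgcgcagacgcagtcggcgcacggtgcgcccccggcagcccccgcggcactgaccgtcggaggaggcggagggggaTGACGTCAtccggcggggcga

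All 4 genes with the element in a promoter were called on the CREM side, against 60.9% of the 64 phosphatase genes and 34.4% of all genes. A link between the element and a call was not tested. None of the highest windows of these 4 genes covered the element. At Ppp2ca, whose element begins 26 bases before the start, the nearest probes, centred about 204 bp before and 21 bp after it, read 0.08 and -1.41. At Ppm1a, whose element begins 136 bases before the start, the probes centred about 171 and 66 bp before it read -1.79 and -1.90. At Ppp2r2d, whose element begins 21 bases before the upstream start, a probe centred about 15.5 bp after that start read -2.03. The highest windows of Ppp2ca, Ppm1d, Ppm1a and Ppp2r2d lay about 1352 and 754 bp before and 2044 and 986 bp after a start. These promoter stretches are 62.0 to 80.0% G and C, and base composition cannot be told apart from position at them.

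The number of calls depended on the background correction and normalisation. With normexp background correction the CREM-side count was 17 of 64 (26.6%), against 16.2% of all genes, and with the authors' deposited ratios it was 18 (28.1%), against 17.1%. The IgG-side counts in these settings were 7 (10.9%), against 3.7% of all genes, and 24 (37.5%), against 22%. Under 13 other settings with the threshold at 1, 6 of the 39 called genes kept a CREM-side call in each, Ppp2ca, Ppp1r11, Ppp1r3f, Ppp1r10, Ppm1j and Ppm1a.

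**Figure D5:**
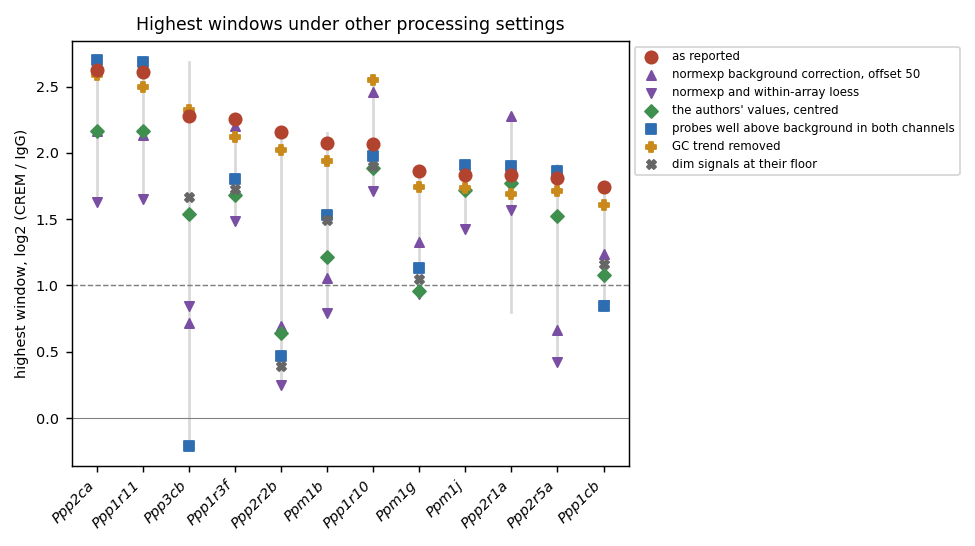
Highest window of the 12 phosphatase genes with the highest reported values (horizontal axis) as log2 of CREM over IgG (vertical axis), as reported (red) and under 6 other processing settings (other marks). The grey bar spans all settings and the dashed line marks 1. The lowest values of Ppp2ca and Ppp1r11 are 1.63 and 1.65, and that of Ppp3cb is -0.21, with dim probes left out.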

How the data were processed

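The members and the gene lists were chosen with earlier results of these data known. The deposited scanner files give each spot's brightness as intensity in both channels, raw and after the scanner's background subtraction and dye normalisation (processed signal), per the file headers. Per the file headers, the scanner was read with Agilent Feature Extraction 10.7.1.1, the positions are mm9, and a log10 ratio of Cy5 over Cy3 and flags (outlier, saturated, well above background) stand beside the signals. The authors' deposited table holds log2 ratios; subtracting background and applying loess returned them in scanner order, with a largest difference of 5e-08 on array 1 and 4.93e-08 on array 2. R 2.10.1 and limma are named in the submitters' processing notes.

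From these, log2 of the processed CREM over IgG intensity was taken for 228277 and 226404 probes and centred on the array median, without loess. Control and outlier spots, probes without a position and probes dim in both channels were left out. The IgG channel was well above background at 80.3% and 82.0% of the used probes and the CREM channel at 99.9% and 99.8%. A window belongs to the gene named for its middle probe, and overlapping called windows were joined into stretches. With 1 hybridisation per array there is no replicate, so precision is limited by their number and no test was run. The named genes are all catalytic genes, the 12 highest and 6 lowest windows, the extremes of each role, the testis-linked members and those next to the threshold. Python 3.11.15, R 4.3.3 and limma 3.58.1 were used, and the steps were tested on simulated data. Gene names were checked against RefSeq (GRCm38.p6).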

Additional observations from a re-analysis of the deposited data

How the results depend on the processing

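The CREM-side count of phosphatase genes (39 of 64 as reported) was 17 with normexp background correction, 7 with normexp and loess, 18 with the authors' values, 24 with probes well above background in both channels, 22 with windows of 5 probes, 25 with dim signals at their floor and 18 at a threshold of 1.5. The IgG-side count (30) was 7 with normexp, 9 with normexp and loess, 18 with windows of 5 probes, 12 with the trend along G and C content removed and 16 at a threshold of 1.5. The median highest window (1.09) was 0.71 with normexp, 0.42 with normexp and loess, 0.77 with the authors' values, 0.76 with both channels clear, 0.80 with 5 probes and 0.85 with dim signals at their floor. Where the CREM-side count moved at the threshold of 1, the share of phosphatase genes ran from 10.9% with normexp and loess, against 6.44% of all genes, to 39.1% with dim signals at their floor, against 21.3%. The highest window of Ppp3cb turned to -0.21 with probes clear in both channels, because its high probes are left out. For the other shifts the cause was not tested.

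The scanner's ratio uncentred, no filter on dim probes, the mean of 3 probes, a gap of 300 bp, all 3 probes named for the gene, saturated spots left out and a threshold of 0.75 kept the counts they give within 1.5 times and the median highest window within the spread of control spots. Single genes moved under some of them: Ppp4c to 0.59 with the gap of 300 bp, and Ppp1ca to 1.05 and Ppp2r2c to 1.15 with the mean. The floor for dim signals was added after seeing the data. Of 637 single gene values under the alternatives, 383 moved by less than the spread between control spots, 253 by more, and 1 called value, that of Ppp3cb, changed sign. Some alternatives could hardly move a value, so the 383 does not measure robustness. The uncentred ratio differs by the centring shift of 0.024 on array 1 and 0.019 on array 2. Only 1 used probe per array was saturated. Ppp2r4, not called at 0.05, was -0.22 with 5 probes, -0.08 with the mean and -0.11 with the gap of 300 bp. No paired analysis was possible because each array was hybridised 1 time and the arrays share no probes. A dim IgG channel limits the size of most high ratios, and without a repeat or a dye swap no reported difference has a replicate error.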

Other observations

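Of 41 genes whose symbols fall outside the naming rule, most for partners of serine-threonine phosphatases and a few for further such enzymes (among them Ppm2c, Pptc7, Ilkap and Ppef2), 35 were measured. The list was chosen with earlier results known. Of these, 20 (57.1%) were called on the CREM side, against 34.4% of all genes, and 13 (37.1%) on the IgG side, against 33.6%. Lcmt1, which methylates the tail of the PP2A catalytic subunit, had a highest window of 2.61 on chr7:130521005-130521356, with IgG clear at 1 of 3 probes. Calm3, one of the calmodulin genes that switch on calcineurin, had 2.52, with IgG clear at 2. Tiprl, which binds PP2A-like catalytic subunits, had 2.47 with all 3 probes clear, and Ensa, whose phosphorylated form inhibits PP2A at mitosis, had 2.18 with IgG clear at 2. The lowest of these highest windows was -0.24, at Ppef2, a serine-threonine phosphatase with calcium-binding EF hands. Nfatc2, a calcineurin substrate that enters the nucleus when dephosphorylated, had a highest window of 0.18 and a lowest of -2.0.

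Other phosphatase families on the same arrays gave 13 of 31 CREM-side calls among protein tyrosine phosphatase genes, with a median highest window of 0.87, and 9 of 22 among dual-specificity phosphatase genes, also with a median of 0.87. These are 41.9% and 40.9% of the genes, against 34.4% of all genes and 38.5% of all genes with 16.75 to 30 windows. Their IgG-side counts were 18 (58.1%) and 10 (45.5%), against 33.6% of all genes. They had medians of 25 and 24.5 windows per gene. These values are descriptions, and the difference from the serine-threonine phosphatase genes was not tested.

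No phosphatase gene name was shared between the arrays, so no gene was measured on both. Ppp4r1l, with a highest window of 0.48, was the 1 member whose symbol could not be matched to RefSeq. Its probes that matched a promoter matched those of Rpusd4 and Fam118b, so its value is that of the probes the array names for it, and it is counted as a member by that name only.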
